A study of Arabidopsis thaliana with 12 samples.

Results

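The cuticular wax genes described here are 10 Arabidopsis genes of wax synthesis and its control, found by gene identifier among the 36061 named genes of the count table. They are KCS1 (AT1G01120), CER6 (AT1G68530), CER10 (AT3G55360), CER2 (AT4G24510), CER1 (AT1G02205), CER3 (AT5G57800), MAH1 (AT1G57750), CER4 (AT4G33790), WSD1 (AT5G37300) and MYB96 (AT5G62470). All 10 were in the table and all 10 passed the filter on low counts, which kept 19681 genes. The genes were chosen for their roles by someone who already knew results of these counts, so the fold changes and p-values below describe them and are not independent evidence that wax genes respond.

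Messenger RNA of rosette leaves was sequenced in 12 libraries, 3 for each of 4 groups. PHD6-drought and PHD6-control plants carried MtPHD6, a plant homeodomain finger gene of Medicago truncatula, in the Columbia background. WT-drought and WT-control plants were untransformed Columbia. Water was withheld from the drought groups, and the sample records give 10 days after drought for all 12 libraries, the controls included. The study's text describes a shorter treatment, so the length of the drought is uncertain. The transgene had been placed in the pCAMBIA1301S vector and the lines had been made homozygous. Which transgenic line gave each PHD6 library is not stated, so an effect of the transgene and one of a single line cannot be told apart.

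Land plants cover their aerial surface with a cuticle of cutin and waxes, which limits water loss outside the stomata. In epidermal cells, the elongase complex of the endoplasmic reticulum lengthens fatty acyl chains to very long ones. These are then turned into alkanes, secondary alcohols and ketones along one branch, or into primary alcohols and wax esters along the other. MYB96 is a transcription factor known to activate wax genes under drought and abscisic acid (ABA).

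The 250 bases before the annotated start of each gene were read from the TAIR10.1 genome and searched on both strands for ACGTG (the core of the ABA-responsive element), TAACTA and TAACTG (letters bound by MYB factors) and ACCGAC (the core of the drought-responsive element). Of the 10 windows, 6 held at least 1 of these motifs. ACGTG was in 4 of the 10, against 22.9% of 27443 windows of the same length before protein-coding genes of the nuclear chromosomes. TAACTA was in 3 of the 10, against 20.6% of all windows. ACCGAC was in 2 of the 10, against 4.7% of all windows, and TAACTG was in 0 of the 10, against 8.12%. Within the 10 windows no marked site overlapped another. The windows of WSD1, CER1 and CER6 are shown because the first pair had the lowest fold changes under drought in WT leaves and CER6 the highest level. They lie at chr5:14767176-14767425 (plus strand), chr1:418166-418415 (plus strand) and chr1:25715025-25715274 (minus strand), are written 5′ to 3′ along the gene, and have matches to the motifs in capitals, written as the reverse complement where the match is on the other strand.
WSD1: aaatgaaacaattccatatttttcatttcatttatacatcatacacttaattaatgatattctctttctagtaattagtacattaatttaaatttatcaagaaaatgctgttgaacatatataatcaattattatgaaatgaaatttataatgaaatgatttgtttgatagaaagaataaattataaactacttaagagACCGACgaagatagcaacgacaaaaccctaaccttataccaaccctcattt
CER1: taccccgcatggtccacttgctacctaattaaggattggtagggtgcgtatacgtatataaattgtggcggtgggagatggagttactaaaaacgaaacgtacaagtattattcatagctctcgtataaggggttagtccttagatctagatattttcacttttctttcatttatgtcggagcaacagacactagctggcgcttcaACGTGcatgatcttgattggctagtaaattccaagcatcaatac
CER6: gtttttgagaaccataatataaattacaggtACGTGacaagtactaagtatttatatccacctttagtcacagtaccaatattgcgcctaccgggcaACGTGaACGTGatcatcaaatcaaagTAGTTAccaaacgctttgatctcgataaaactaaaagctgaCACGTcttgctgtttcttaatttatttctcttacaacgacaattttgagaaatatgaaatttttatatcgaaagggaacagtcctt
WSD1 had 1 ACCGAC, starting 51 bases before the gene. CER1 had 1 ACGTG, 44 bases before it. CER6 had 4 matches to ACGTG and 1 to TAACTA. The windows of CER3, KCS1, CER10 and MYB96 held none of the 4 motifs. A match is only a description of these letters.

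Libraries held 17839925 to 24717357 counts in named genes, with a median of 21097298. Counts are given as CPM (counts scaled to a common library size) after trimmed-mean (TMM) scaling. Of 5 mesophyll marker genes and 7 epidermis identity genes, none was at 0 throughout a group. The same held for the flower markers and the root and suberin markers, so this cannot check the label leaf. Summed mesophyll markers were 18377 to 22748 CPM in PHD6-drought, 23066 to 25257 CPM in WT-drought, 26673 to 30215 CPM in PHD6-control and 21514 to 33364 CPM in WT-control libraries. Summed epidermis markers were 402 to 531 CPM in PHD6-drought, 484 to 528 CPM in WT-drought, 520 to 565 CPM in PHD6-control and 510 to 658 CPM in WT-control libraries. Wax genes act in the epidermis, and in RNA of whole leaves fewer epidermal cells and less RNA per cell cannot be told apart. WT-control replicate 2 stood apart within its group, with the lowest mesophyll sum and the highest sum of 8 flower markers (38.6 CPM, against 8.45 and 20.2 CPM in the other WT-control libraries), none of which was at 0 throughout a group. The part of these differences in the results was not tested.

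Drought was compared with watering within each genotype, to ask which wax genes respond. In PHD6 leaves, 5 of the 10 genes fell under drought (KCS1, CER2, CER1, CER3 and MYB96) and 0 rose, where 22.2% of all genes tested passed (9.49% higher and 12.7% lower). In WT leaves, 3 of the 10 fell (CER10, CER1 and WSD1) and 0 rose, where 19.4% of all genes passed (12.2% higher and 7.18% lower). The median log2 fold change of the 10 genes was -0.565 in PHD6 leaves, against 0.02 over all genes, and -0.345 in WT leaves, against -0.01 over all genes. For the 7 epidermis identity genes it was -0.22 in PHD6 leaves and -0.26 in WT leaves. In each genotype 2 of these 7 fell and 0 rose, a share of 28.6%, beside the shares of all genes above. The part of this in the wax gene results was not tested. A gene passed at an adjusted p under 0.05 in edgeR's quasi-likelihood test with Benjamini-Hochberg adjustment over all 19681 genes, and the standard error (SE) stands beside each log2 fold change. Without PHD6-control replicate 3, 8 genes were lower in PHD6 leaves, CER10, CER4 and WSD1 being added. With DESeq2, 7 were lower and 1 was higher, CER4, WSD1 and MAH1 being added. Without WT-control replicate 2, 5 were lower in WT leaves, KCS1 and CER2 being added. The drought and control libraries did not overlap for 5 of the 10 genes in PHD6 leaves and 4 in WT leaves, all lower. Such separation in the lower direction was seen for 21.3% of all genes in PHD6 leaves and 16.4% in WT leaves. In either direction it was 41.2% in PHD6 leaves and 37.6% in WT leaves.

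**Figure D1:**
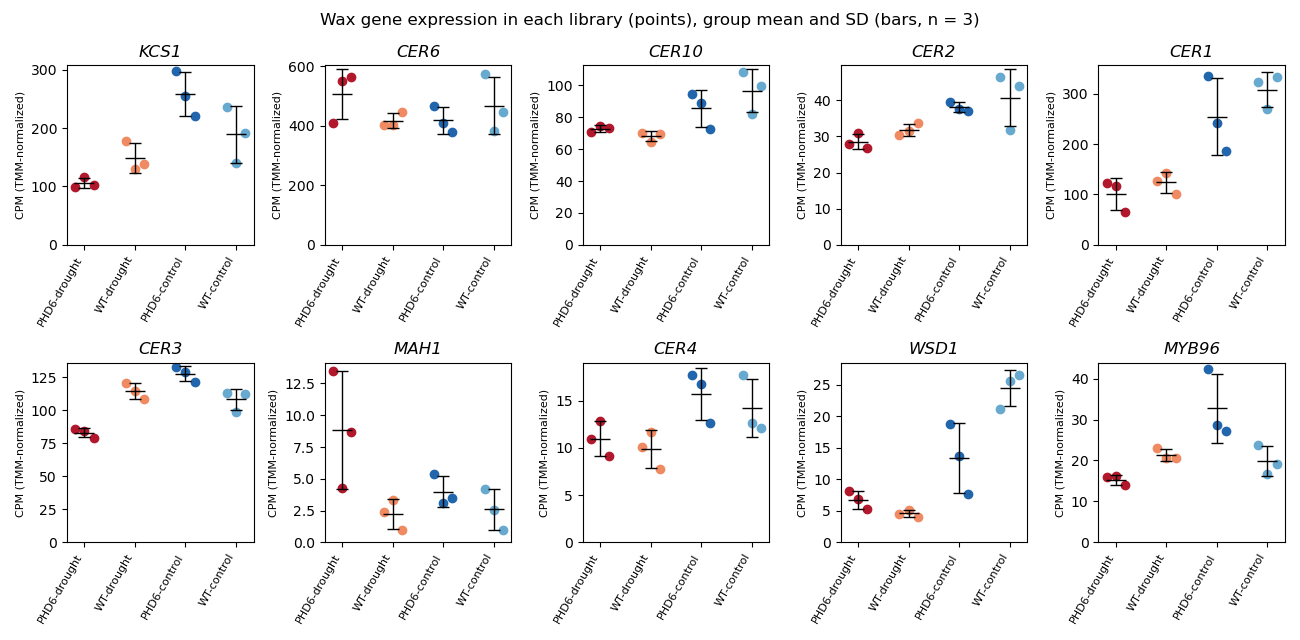
TMM-normalized CPM of the 10 wax genes (y axis, from 0) in every library of PHD6-drought, WT-drought, PHD6-control and WT-control leaves (x axis), with points for libraries 1 to 3 from left to right and bars for the mean and SD (n = 3). CER1 lay between 65.1 and 143 CPM in the 6 drought libraries, all below the 187 to 336 CPM of the 6 control libraries, whereas CER3 was low in PHD6-drought alone.

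Of the elongation genes, KCS1 and CER2 fell under drought in PHD6 leaves and CER10 fell in WT leaves. KCS1, a ketoacyl-CoA synthase that catalyses the first step of each round of elongation, had 99.9, 116 and 102 CPM in PHD6-drought and 298, 256 and 221 CPM in PHD6-control libraries. It had 179, 131 and 139 CPM in WT-drought and 236, 140 and 191 CPM in WT-control libraries. The PHD6 groups did not overlap, whereas the WT groups did. KCS1 fell by 1.28 on the log2 scale in PHD6 leaves (SE 0.12, edgeR adjusted p = 0.000468). In WT leaves its log2 fold change was -0.34 (SE 0.19, edgeR adjusted p = 0.255). With the replicate block, which takes WT libraries of the same number as paired, KCS1 was called lower in WT leaves too (log2 fold change -0.32, edgeR adjusted p = 0.0395, with 0.0292 to 0.589 over all alternatives).

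CER2, an acyltransferase-like protein needed for the longest chains, had 28.0, 31.0 and 26.8 CPM in PHD6-drought and 39.6, 37.7 and 37.0 CPM in PHD6-control libraries. It had 30.5, 31.5 and 33.7 CPM in WT-drought and 46.5, 31.8 and 43.9 CPM in WT-control libraries. Only the PHD6 groups were free of overlap. The log2 fold change was -0.41 in PHD6 leaves (SE 0.08, edgeR adjusted p = 0.00943) and -0.35 in WT leaves (SE 0.13, edgeR adjusted p = 0.106). CER2 shares 96 bases with AT4G24520 and 316 with a long noncoding RNA on the opposite strand, and the strand setting of the counting is not given in the sources used here.

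CER10, the enoyl-CoA reductase that completes each round, had 70.4, 64.6 and 69.8 CPM in WT-drought and 109, 82.0 and 99.6 CPM in WT-control libraries. In PHD6 leaves it had 70.6, 74.9 and 73.5 CPM under drought and 94.9, 89.0 and 72.9 CPM in control libraries. The WT groups did not overlap, and PHD6-control replicate 3 lay among the PHD6-drought libraries. The log2 fold change was -0.50 in WT leaves (SE 0.11, edgeR adjusted p = 0.0116) and -0.23 in PHD6 leaves (SE 0.10, edgeR adjusted p = 0.135). Without WT-drought replicate 2 the WT call was lost (edgeR adjusted p = 0.0594, with 0.000458 to 0.0594 over all alternatives). CER10 shares 27 bases with AT3G55350 on the opposite strand.

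CER6, the condensing enzyme for the longest wax precursors, had the highest level of the 10 genes and passed in neither genotype. It had 410, 550 and 562 CPM in PHD6-drought and 467, 409 and 378 CPM in PHD6-control libraries. In WT leaves it had 403, 403 and 446 CPM under drought and 574, 383 and 447 CPM in control libraries. Both pairs of groups overlapped. The log2 fold change was 0.28 in PHD6 leaves (SE 0.13, edgeR adjusted p = 0.166) and -0.17 in WT leaves (SE 0.14, edgeR adjusted p = 0.486). Without PHD6-drought replicate 1, CER6 was called higher in PHD6 leaves (log2 fold change 0.41, edgeR adjusted p = 0.0209, with 0.0209 to 0.389 over all alternatives).

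In the alkane branch, CER1 fell under drought in both genotypes and CER3 in PHD6 leaves. CER1, which with CER3 makes alkanes, had 122, 117 and 65.1 CPM in PHD6-drought and 336, 241 and 187 CPM in PHD6-control libraries. It had 128, 143 and 101 CPM in WT-drought and 322, 269 and 333 CPM in WT-control libraries. Neither pair of groups overlapped, and replicate 3 was the lowest library of both PHD6 groups. CER1 fell by 1.32 on the log2 scale in PHD6 leaves (SE 0.27, edgeR adjusted p = 0.0113) and by 1.31 in WT leaves (SE 0.14, edgeR adjusted p = 0.000387). Both calls held under every alternative tried. The difference of these responses was -0.01 (SE 0.34, edgeR adjusted p = 0.994).

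CER3, the partner of CER1, had 85.3, 84.6 and 79.2 CPM in PHD6-drought and 132, 129 and 121 CPM in PHD6-control libraries. It had 121, 114 and 109 CPM in WT-drought and 113, 98.9 and 113 CPM in WT-control libraries. The PHD6 groups lay apart and the WT groups overlapped. CER3 fell by 0.62 on the log2 scale in PHD6 leaves (SE 0.07, edgeR adjusted p = 0.00128), and its log2 fold change in WT leaves was 0.08 (SE 0.08, edgeR adjusted p = 0.551).

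MAH1, the midchain alkane hydroxylase that makes secondary alcohols and ketones, had low and scattered counts, between 17 and 316 reads a library. It had 13.5, 4.24 and 8.71 CPM in PHD6-drought and 5.35, 3.11 and 3.47 CPM in PHD6-control libraries. In WT leaves it had 2.39, 3.36 and 0.96 CPM under drought and 4.20, 2.58 and 0.98 CPM in control libraries. Both pairs overlapped. The log2 fold change was 1.15 in PHD6 leaves (SE 0.39, edgeR adjusted p = 0.0679) and -0.20 in WT leaves (SE 0.53, edgeR adjusted p = 0.843). In PHD6 leaves MAH1 was called higher with DESeq2, without the filter on low counts, with the replicate block and without PHD6-drought replicate 2 (adjusted p 0.0105 to 0.196 over all alternatives).

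In the alcohol and ester branch, WSD1 had the lowest fold change of the 10 genes under drought in WT leaves. WSD1, the wax synthase that joins primary alcohols to acyl chains, had 4.49, 5.16 and 4.09 CPM in WT-drought and 21.2, 25.7 and 26.6 CPM in WT-control libraries. It had 8.20, 6.81 and 5.26 CPM in PHD6-drought and 18.9, 13.7 and 7.69 CPM in PHD6-control libraries. The WT groups were far apart, whereas PHD6-control replicate 3 lay inside the range of PHD6-drought. WSD1 fell by 2.41 on the log2 scale in WT leaves (SE 0.13, edgeR adjusted p = 2.98e-05). In PHD6 leaves its log2 fold change was -0.98 (SE 0.30, edgeR adjusted p = 0.0511), and without PHD6-control replicate 3 it was -1.25 (edgeR adjusted p = 0.00499, with 0.00499 to 0.179 over all alternatives).

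CER4, the reductase that makes primary alcohols, had 11.0, 12.8 and 9.15 CPM in PHD6-drought and 17.8, 16.8 and 12.6 CPM in PHD6-control libraries. It had 10.1, 11.7 and 7.76 CPM in WT-drought and 17.8, 12.7 and 12.2 CPM in WT-control libraries. The WT groups did not overlap and the PHD6 groups did. The log2 fold change was -0.51 in PHD6 leaves (SE 0.16, edgeR adjusted p = 0.0568) and -0.52 in WT leaves (SE 0.19, edgeR adjusted p = 0.0912). In the WT comparison, a fit with the replicate block called 5 of the 10 genes lower instead of 3. CER4 (edgeR adjusted p = 0.0301, with 0.0301 to 0.27 over all alternatives) and KCS1 were added. Same-numbered WT libraries deviated together, but hardly so for replicate 3.

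MYB96, the activator, had 15.8, 16.2 and 13.9 CPM in PHD6-drought and 42.5, 28.6 and 27.1 CPM in PHD6-control libraries. It had 23.0, 20.6 and 20.6 CPM in WT-drought and 23.8, 16.7 and 19.2 CPM in WT-control libraries. The PHD6 groups did not overlap and the WT groups did. MYB96 fell by 1.09 on the log2 scale in PHD6 leaves (SE 0.17, edgeR adjusted p = 0.00429), and its log2 fold change in WT leaves was 0.10 (SE 0.13, edgeR adjusted p = 0.636).

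Of 5 drought and ABA marker genes tested, 4 fell and 0 rose in PHD6 leaves, and 3 fell and 0 rose in WT leaves. These are shares of 80% in PHD6 leaves, beside 22.2% of all genes, and 60% in WT leaves, beside 19.4%. No tested drought marker was thus called higher under drought in these libraries. HAI1 passed in neither genotype and overlapped between the groups in both, and RD29B, the other listed marker, had too few counts to be tested. RD29A, a dehydration-responsive gene, had a log2 fold change of -1.26 in PHD6 leaves (SE 0.25, edgeR adjusted p = 0.0106) and -1.31 in WT leaves (SE 0.10, edgeR adjusted p = 9.28e-05). The summed level of the 6 listed markers was 105 to 132 CPM in PHD6-drought, 103 to 123 CPM in WT-drought, 173 to 315 CPM in PHD6-control and 214 to 236 CPM in WT-control libraries. The part of this in the wax gene results was not tested.

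Whether drought acted differently in the genotypes was tested as an interaction over all 12 libraries, in which 6.98% of all genes passed (1.38% higher and 5.6% lower). Of the 10 wax genes, 3 responded lower in PHD6 than in WT leaves (MYB96, KCS1 and CER3) and 1 higher (WSD1). The difference was -1.20 for MYB96 (SE 0.23, edgeR adjusted p = 0.00633), -0.94 for KCS1 (SE 0.25, edgeR adjusted p = 0.0367) and -0.70 for CER3 (SE 0.10, edgeR adjusted p = 0.000865). For WSD1 it was 1.43 (SE 0.37, edgeR adjusted p = 0.034). CER2 (-0.06) and CER10 (0.27) did not pass, so a difference between the genotypes was not shown for them. The MYB96 and CER3 calls held under every alternative tried. Those of KCS1 and WSD1 were each lost when 1 of 8 libraries was left out, with adjusted p up to 0.102 for KCS1 (without WT-drought replicate 1) and up to 0.0904 for WSD1 (without WT-drought replicate 3). For KCS1 these were all PHD6-drought libraries, WT-drought replicates 1 and 3, PHD6-control replicates 1 and 2 and WT-control replicate 3. For WSD1 they were PHD6-drought replicates 1 and 2, all WT-drought libraries, PHD6-control replicate 2 and WT-control replicates 2 and 3.

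**Figure D2:**
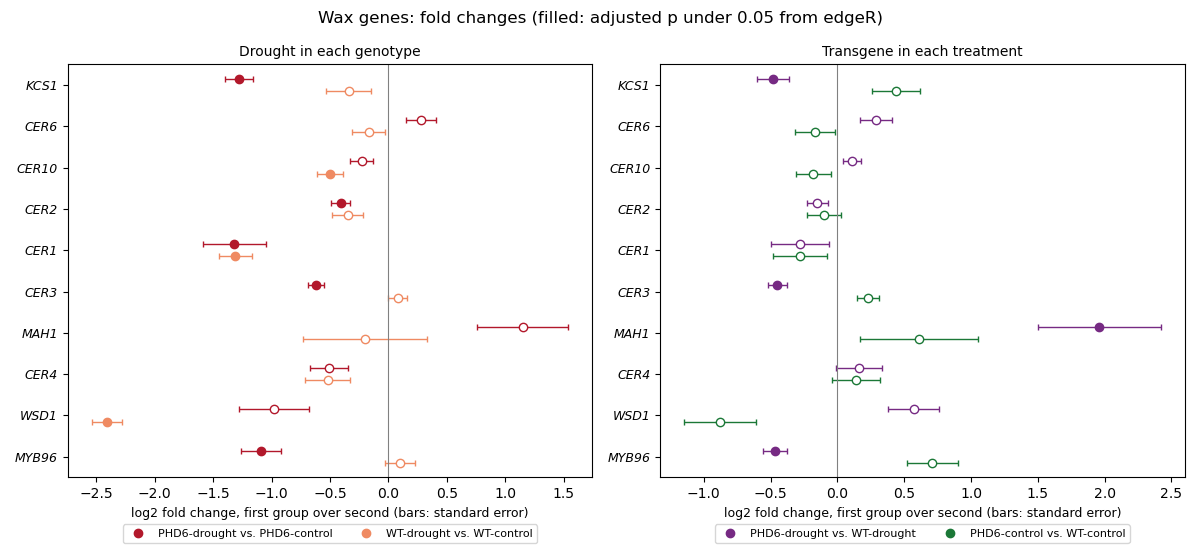
Log2 fold changes (x axis, first group over second, bars for the standard error) of the 10 wax genes (rows) under drought in each genotype (left) and for the transgene in each treatment (right), with filled points for adjusted p under 0.05. MYB96 was at -1.09 in PHD6 leaves and 0.10 in WT leaves on the left, and at -0.47 under drought and 0.71 in watered plants on the right.

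PHD6 leaves were then compared with WT leaves in each treatment, to ask what the transgene changed. These comparisons use the libraries of the drought comparisons again and are not independent of them. Under drought, 3 of the 10 genes were lower in PHD6 leaves (KCS1, CER3 and MYB96) and 1 was higher (MAH1), where 6.53% of all genes passed (2.65% higher and 3.89% lower). In watered plants 0 of the 10 passed in edgeR, where 4.98% of all genes passed (4.26% higher and 0.722% lower). There, 4 of the 10 had an unadjusted p under 0.05 (KCS1, CER3, WSD1 and MYB96), as did 3560 of the 19681 genes tested. In the same comparison DESeq2 called 2 (MYB96 higher and WSD1 lower). The median log2 fold change of the 10 genes was -0.02 under drought and 0.02 in watered plants, against 0.01 and -0.02 over all genes. Under drought, 3 of the 10 lay higher and 3 lower without overlap of the groups, where 28.5% of all genes did not overlap. In watered plants 2 lay higher and 1 lower without overlap, where 24.4% of all genes did not overlap.

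Under drought, CER3 was lower in PHD6-drought than in WT-drought libraries, with no overlap and a log2 fold change of -0.45 (SE 0.07, edgeR adjusted p = 0.0104). MYB96 was likewise lower without overlap, at -0.47 (SE 0.09, edgeR adjusted p = 0.0237). KCS1 was lower at -0.48 (SE 0.12, edgeR adjusted p = 0.0445). MAH1 was higher in all 3 PHD6-drought libraries than in any WT-drought library, at 1.96 (SE 0.46, edgeR adjusted p = 0.0398). Without WT-drought replicate 1, 0 of the 10 passed, and CER3 then had an adjusted p of 0.0523, with 5.59e-06 to 0.0523 over all alternatives. Leaving out PHD6-drought replicate 2 left 2 calls, and leaving out PHD6-drought replicate 3, WT-drought replicate 2 or WT-drought replicate 3 left 1 call each. Without PHD6-drought replicate 1, 5 passed, CER6 being added as higher in PHD6 leaves (log2 fold change 0.42, edgeR adjusted p = 0.00558, with 0.00558 to 0.401 over all alternatives). With all 12 libraries fitted together the calls of KCS1, MAH1 and MYB96 were lost, and with the replicate block those of KCS1 and MAH1. Over all alternatives the adjusted p reached 0.131 for KCS1, 0.145 for MAH1 and 0.124 for MYB96.

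In watered plants, MYB96 was higher in every PHD6-control library than in any WT-control library, with a log2 fold change of 0.71 (SE 0.19, edgeR adjusted p = 0.0777, with 0.0071 to 0.227 over all alternatives). CER3 lay apart in the same way, at 0.23 (SE 0.08, edgeR adjusted p = 0.176). KCS1 was at 0.44 (SE 0.18, edgeR adjusted p = 0.255), and its groups overlapped. WSD1 was lower in every PHD6-control library than in any WT-control library, at -0.88 (SE 0.27, edgeR adjusted p = 0.126). Without PHD6-control replicate 1 it passed at -1.20 (edgeR adjusted p = 0.0482, with 0.0167 to 0.308 over all alternatives). CER1 was at -0.28 both in watered plants (SE 0.20, edgeR adjusted p = 0.512) and under drought (SE 0.22, edgeR adjusted p = 0.503).

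Levels of different genes were compared per length, as FPKM (CPM divided by exon length in kilobases). CER6 led in every group, at 194 ± 32.3 FPKM in PHD6-drought, 160 ± 9.52 FPKM in WT-drought, 160 ± 17.4 FPKM in PHD6-control and 179 ± 37.1 FPKM in WT-control leaves (SD, n = 3 each). KCS1 came next in each group and was at 51.7 ± 4.19 FPKM in PHD6-drought, 72.7 ± 12.5 FPKM in WT-drought, 126 ± 18.6 FPKM in PHD6-control and 92.2 ± 23.5 FPKM in WT-control leaves (SD, n = 3 each). The libraries of KCS1 overlapped those of CER6 in PHD6-control and of CER10 in PHD6-drought. CER1 was the fifth in both drought groups, at 28.2 ± 8.79 FPKM in PHD6-drought and 34.4 ± 5.85 FPKM in WT-drought leaves, and the third in both control groups, at 70.9 ± 21.0 FPKM in PHD6-control and 85.8 ± 9.54 FPKM in WT-control leaves (SD, n = 3 each). Its libraries overlapped those of CER3 and CER2 in PHD6-drought, of CER10 in PHD6-control and of KCS1 and CER10 in WT-control.

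CER10 was between 47.7 FPKM in WT-drought and 67.6 FPKM in WT-control leaves, and CER3 between 32.1 FPKM in PHD6-drought and 49.2 FPKM in PHD6-control leaves. CER2 lay below them, from 17.6 FPKM in PHD6-drought to 25.0 FPKM in WT-control leaves. MYB96, CER4, WSD1 and MAH1 made up the low end of the order, and WSD1 and MAH1 changed places there. The lowest was WSD1 in PHD6-drought (3.28 FPKM), whose libraries overlapped those of MAH1 above it, and MAH1 in the other groups (1.18 FPKM in WT-drought, 2.10 FPKM in PHD6-control and 1.36 FPKM in WT-control). CER1 made up 7.11% of the summed FPKM of the 10 genes in PHD6-drought, 8.64% in WT-drought, 13.5% in PHD6-control and 16.4% in WT-control leaves. The order by TPM was the same in all 4 groups.

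**Figure D3:**
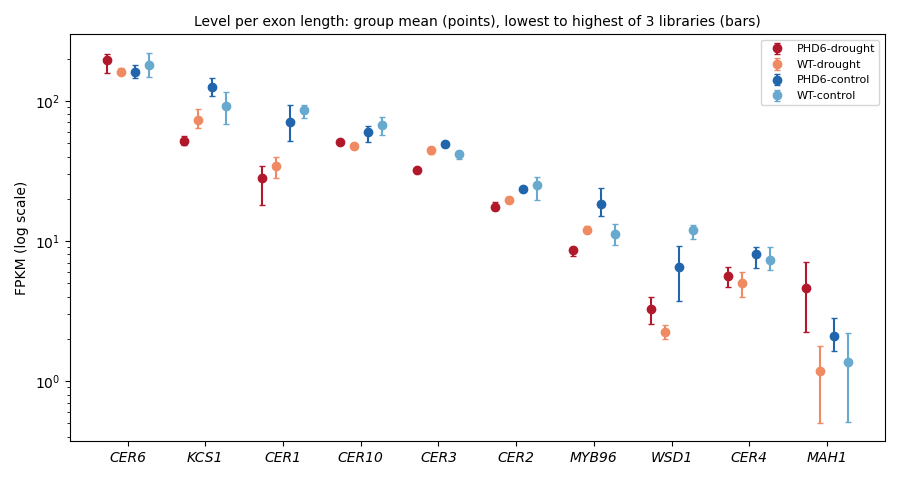
FPKM (y axis, log scale) of the 10 wax genes (x axis) in PHD6-drought, WT-drought, PHD6-control and WT-control leaves, with points for the mean and bars from the lowest to the highest of 3 libraries. CER6 led in all 4 groups, at 160 to 194 FPKM, and MAH1 and WSD1 were at the low end under drought, at 1.18 to 4.65 FPKM.

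Over the 12 libraries, the wax gene pair most alike in log2 CPM was KCS1 and MYB96 (Pearson r = 0.906), followed by CER1 and WSD1 (r = 0.891). CER6 and CER1 had r = -0.163. The 5 genes most like CER1 among all tested were AT4G04750 (r = 0.982), AT4G38950 (r = 0.976), IAA8 (AT2G22670, r = 0.974), AT5G19730 (r = 0.972) and AT1G10650 (r = 0.969). The libraries share 4 groups, so these values describe the group pattern as well as single libraries.

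The other genes of the cuticle were taken from lists of known roles, 71 of them in the table and 67 tested. In PHD6 leaves 25 of the 67 fell and 2 rose under drought, a share of 40.3%, beside 22.2% of all genes. In WT leaves 8 fell and 7 rose, a share of 22.4%, beside 19.4% of all genes. In the interaction 11 of the 67 responded lower in PHD6 leaves and 0 higher, a share of 16.4%, beside 6.98% of all genes. The PHD6 count was 12 without PHD6-control replicate 1 and 16 without PHD6-drought replicate 3.

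Elongation genes had the most such calls. Of 23 genes of elongation and acyl activation, 13 fell under drought in PHD6 leaves and 0 rose, whereas in WT leaves 5 fell and 3 rose. These are shares of 56.5% in PHD6 leaves, beside 22.2% of all genes, and 34.8% in WT leaves, beside 19.4%. KCS20, a ketoacyl-CoA synthase related to KCS1, had a log2 fold change of -0.80 in PHD6 leaves (SE 0.09, edgeR adjusted p = 0.00115) and -0.06 in WT leaves (SE 0.16, edgeR adjusted p = 0.835). KCS9, another ketoacyl-CoA synthase, had -0.69 in PHD6 leaves (SE 0.08, edgeR adjusted p = 0.00123) and 0.33 in WT leaves (SE 0.14, edgeR adjusted p = 0.152). KCS3 had -0.86 in PHD6 leaves (SE 0.10, edgeR adjusted p = 0.00152) and 0.08 in WT leaves (SE 0.15, edgeR adjusted p = 0.775). KCS12 had 0.07 in PHD6 leaves (SE 0.09, edgeR adjusted p = 0.589) and rose by 0.84 in WT leaves (SE 0.11, edgeR adjusted p = 0.00114). All 4 passed in the interaction, with adjusted p of 0.0488 for KCS20, 0.00268 for KCS9, 0.00612 for KCS12 and 0.0123 for KCS3.

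**Figure D4:**
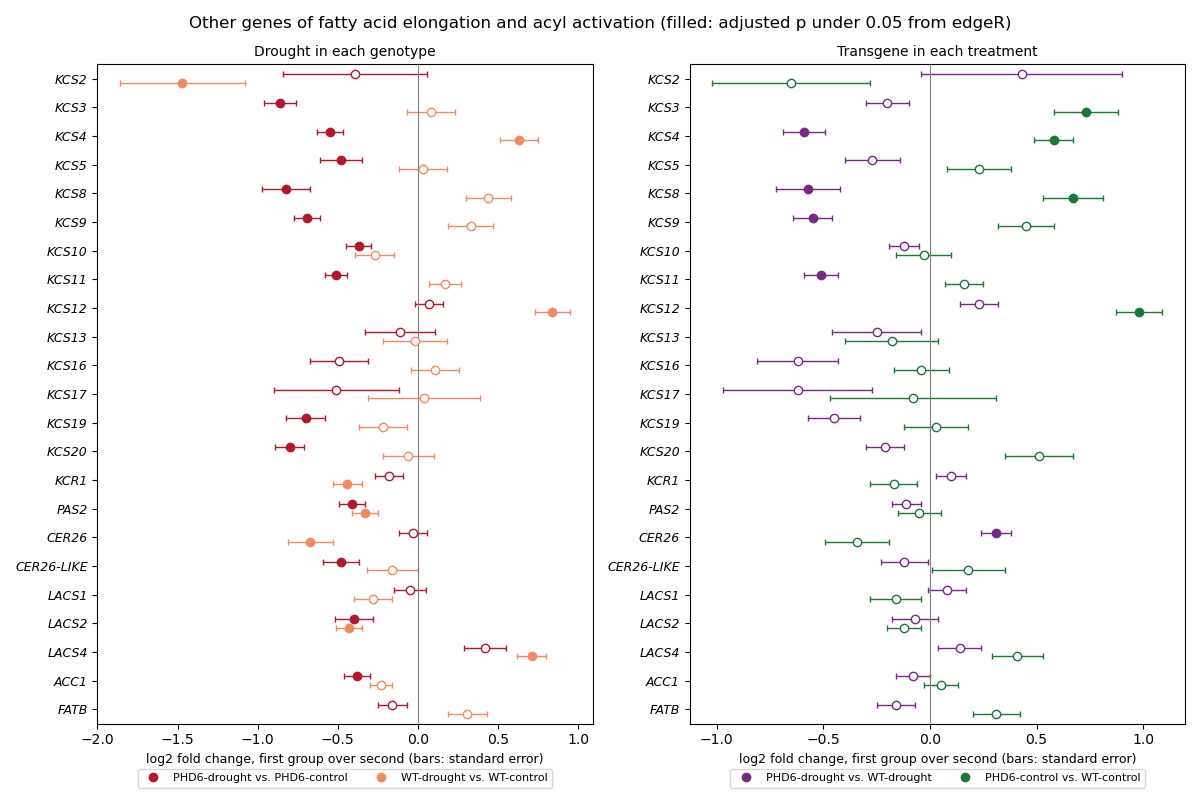
Log2 fold changes (x axis, first group over second, bars for the standard error) of 23 other genes of elongation and acyl activation (rows) under drought in each genotype (left) and for the transgene in each treatment (right), with filled points for adjusted p under 0.05. In PHD6 leaves 13 were called lower and 0 higher under drought, where 22.2% of all genes were called. In WT leaves 5 were called lower and 3 higher, where 19.4% of all genes were called.

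Among 15 other regulators tested, 4 fell and 0 rose under drought in PHD6 leaves, and 1 fell and 3 rose in WT leaves. These are shares of 26.7% in each genotype, beside 22.2% of all genes in PHD6 leaves and 19.4% in WT leaves. DEWAX, a repressor of wax genes, had 133, 182 and 156 CPM in PHD6-drought and 169, 171 and 191 CPM in PHD6-control libraries. It had 203, 165 and 176 CPM in WT-drought and 107, 85.5 and 102 CPM in WT-control libraries, so WT-control was the low group. Its log2 fold change under drought was -0.17 in PHD6 leaves (SE 0.12, edgeR adjusted p = 0.333) and 0.89 in WT leaves (SE 0.11, edgeR adjusted p = 0.000904). The interaction was -1.06 (SE 0.17, edgeR adjusted p = 0.00179), and in watered plants DEWAX was higher in PHD6 than in WT leaves, at 0.85 (SE 0.10, edgeR adjusted p = 0.00302). AT5G07580 had -0.06 in PHD6 leaves (SE 0.08, edgeR adjusted p = 0.635) and 0.52 in WT leaves (SE 0.10, edgeR adjusted p = 0.00659).

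MYB30, an activator of very-long-chain synthesis in defence, fell by 0.64 under drought in PHD6 leaves (SE 0.10, edgeR adjusted p = 0.00371) and had 0.09 in WT leaves (SE 0.10, edgeR adjusted p = 0.603). MYB16, a regulator of cuticle formation, fell by 0.40 in PHD6 leaves (SE 0.09, edgeR adjusted p = 0.0179) and by 0.54 in WT leaves (SE 0.08, edgeR adjusted p = 0.00172). MYB94, which acts with MYB96, fell by 0.51 in PHD6 leaves (SE 0.11, edgeR adjusted p = 0.0157) and had -0.20 in WT leaves (SE 0.12, edgeR adjusted p = 0.309). Its interaction was -0.31 (SE 0.17, edgeR adjusted p = 0.376), so a difference between the genotypes was not shown for MYB94.

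In each of the other lists the calls under drought were fewer than among the elongation genes. Of 9 tested genes of the alkane, alcohol and ester branches, 1 fell and 2 rose in PHD6 leaves, and 1 fell and 1 rose in WT leaves. These are shares of 33.3% in PHD6 leaves, beside 22.2% of all genes, and 22.2% in WT leaves, beside 19.4%. FAR1, an alcohol-forming reductase, fell by 1.14 in PHD6 leaves (SE 0.24, edgeR adjusted p = 0.013) and had 0.19 in WT leaves (SE 0.13, edgeR adjusted p = 0.379), with an interaction of -1.33 (SE 0.31, edgeR adjusted p = 0.0182). CB5-C, a cytochrome b5, had -0.19 in PHD6 leaves (SE 0.14, edgeR adjusted p = 0.362) and fell by 0.85 in WT leaves (SE 0.15, edgeR adjusted p = 0.00552). FAR1 was the only 1 of the 9 to pass in the interaction, a share of 11.1%, beside 6.98% of all genes. A difference between the genotypes was thus not shown for CB5-C. AT3G49210 rose by 0.59 in PHD6 leaves (edgeR adjusted p = 0.0304), and AT5G12420 rose by 0.79 in PHD6 leaves (edgeR adjusted p = 0.0374) and by 1.07 in WT leaves (edgeR adjusted p = 0.0472). AT1G02190 passed in neither genotype.

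Of 6 genes of wax and cutin export, 2 fell in PHD6 leaves (33.3%, beside 22.2% of all genes) and 0 passed in WT leaves (beside 19.4% of all genes). LTPG2, a lipid transfer protein at the plasma membrane, fell by 0.84 in PHD6 leaves (SE 0.11, edgeR adjusted p = 0.00222), and LTPG1 fell by 0.46 (SE 0.12, edgeR adjusted p = 0.0252). ABCG12, a wax exporter, had 0.07 in PHD6 leaves (SE 0.11, edgeR adjusted p = 0.71) and -0.40 in WT leaves (SE 0.14, edgeR adjusted p = 0.0813). Of 14 genes of cutin synthesis, 5 fell in PHD6 leaves (35.7%, beside 22.2% of all genes) and 1 fell in WT leaves (7.14%, beside 19.4%). CYP86A2, a fatty acid hydroxylase, fell by 0.93 in PHD6 leaves (SE 0.08, edgeR adjusted p = 0.000276). CYP86A8 fell by 0.62 in PHD6 leaves (edgeR adjusted p = 0.00389) and by 0.45 in WT leaves (edgeR adjusted p = 0.00867). GPAT4 and GPAT8, acyltransferases of cutin synthesis, fell by 0.39 (edgeR adjusted p = 0.0127) and 0.44 (edgeR adjusted p = 0.013) in PHD6 leaves. The median log2 fold change of the export genes was -0.09 in PHD6 leaves and -0.36 in WT leaves. That of the cutin genes was -0.395 in PHD6 leaves and -0.265 in WT leaves. In the interaction 0 of the 6 export genes and 0 of the 14 cutin genes passed, beside 6.98% of all genes. A difference between the genotypes was thus not shown for either list.

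For the transgene, 1 of the 67 other cuticle genes was higher and 5 were lower in PHD6-drought than in WT-drought leaves, a share of 8.96%, beside 6.53% of all genes. In watered plants 8 were higher and 0 lower in PHD6 leaves, a share of 11.9%, beside 4.98% of all genes. Under drought the count was 15 without PHD6-drought replicate 1, 3 without PHD6-drought replicate 2 and 2 without WT-drought replicate 1. In watered plants it was 4 without PHD6-control replicate 1 or 2 and 5 without PHD6-control replicate 3 or WT-control replicate 3.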

How the data were processed

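RNA of rosette leaves was sequenced as paired-end reads, and the authors deposited 1 table of raw counts per gene for 12 libraries in 4 groups of 3. Per the labels' processing notes, HISAT2 2.0.5 and featureCounts 1.5.0-p3 were used, with DESeq2 1.16.1 for the authors' own tests. The strand setting is not given in the sources used here, nor is the build. All 36061 named genes were found in TAIR10.1, which gave exon lengths, positions and the promoter sequences (RefSeq). Of 38082 rows, 2021 had no gene name and were left out (0.387 to 0.463% of counts).

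Counts were scaled by TMM and tested with edgeR 4.0.16 (quasi-likelihood F-test, R 4.3.3, limma 3.58.1), within the 6 libraries of each comparison, or all 12 for the interaction, after filterByExpr with a minimum count of 10. Genes were called at an adjusted p under 0.05 (Benjamini-Hochberg over 19681 genes). The SE is the absolute log2 fold change divided by the square root of F. The study states biological replicates, but which plants or lines gave each library is not recorded, so p-values measure the spread between these libraries. The test was tried on simulated counts with known changes.

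Alternatives were other scalings, DESeq2 1.42.0, a fit to all 12 libraries together, a replicate block, a filter of 1 CPM in every library or none, and leaving out each library. Replicate numbers come from the sample titles. Same-numbered libraries deviated together in WT-drought and WT-control (r = 0.36, 0.212 and 0.115, on log2 of CPM plus 0.5), and not in every pair of the other comparisons. For these WT-drought libraries the highest r with another number was -0.128, 0.0312 and 0.1, so replicate 3 was hardly closer to its own number. The titles do not say what same-numbered libraries share. The 10 genes and all lists were chosen with earlier results of these data known. All 10 are named. Of each other list, up to 4 called genes with the smallest p in any of the 4 comparisons are named, with DEWAX, MYB94, AT1G02190 and ABCG12 in any case. RD29A was named after its values were seen. Of the listed genes, 1 was not analysed here.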

Additional observations from a re-analysis of the deposited data

Results flagged for a closer look

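The drought response of 4 wax genes differed between the genotypes by the interaction test over all 12 libraries. On the log2 scale, the response in PHD6 leaves minus that in WT leaves was -0.70 for CER3, 1.43 for WSD1, -0.94 for KCS1 and -1.20 for MYB96. The adjusted p from edgeR was 0.000865 for CER3, 0.034 for WSD1, 0.0367 for KCS1 and 0.00633 for MYB96. The WSD1 and KCS1 calls were each lost when 1 of 8 libraries was left out. Their edgeR adjusted p then reached 0.0904 for WSD1 and 0.102 for KCS1.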

How the results depend on the processing

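Over 50 fold changes of wax genes, 695 alternative values kept direction and side of the threshold in 610 cases, lost the call in 37, gained it in 30 and changed sign in 18. The cause was not tested for any of them. MAH1 had the lowest count of the wax genes, at 17 reads in a library. Its libraries also differed within groups, with 316, 96 and 159 reads in PHD6-drought.

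With drought in WT leaves, 5 wax genes instead of 3 were called with upper-quartile scaling and with the replicate block, and 2 to 5 when a library was left out. With drought in PHD6 leaves, 8 instead of 5 were called (7 lower and MAH1 higher) with DESeq2, without the filter and with the replicate block, and 5 to 8 when a library was left out. For the transgene in watered plants, 2 instead of 0 were called with DESeq2 and with all 12 libraries together, 1 without the filter and with the replicate block, and 0 to 1 when a library was left out. For the transgene under drought, 1 instead of 4 was called with all 12 libraries together, 2 with the replicate block, and 0 to 5 when a library was left out. In the interaction, 2 to 4 were called when a library was left out. Of other cuticle genes under drought, 3 instead of 6 differed by transgene with all 12 libraries together, and 2 to 15 when a library was left out. Leaving out a library gave 12 to 30 in PHD6 leaves, 10 to 22 in WT leaves and 4 to 7 for the transgene in watered plants.

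All sign changes were of values that passed no test. The CER1 interaction was 0.0007 with DESeq2 size factors, 0.0689 with upper-quartile scaling, 0.015 with the replicate block and -0.19 to 0.24 when a library was left out. The CER2 interaction was 0.0097 with upper-quartile scaling and -0.17 to 0.0877 when a library was left out. Leaving out a library gave -0.18 to 0.15 for the CER4 interaction, and in WT leaves under drought -0.29 to 0.0069 for CER6, -0.62 to 0.32 for MAH1 and -0.0106 to 0.25 for MYB96. Outside WT drought, same-numbered libraries did not deviate together in every pair.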

Other observations

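The summed level of 6 guard cell markers was 45.1 to 61.4 CPM in PHD6-drought, 55.5 to 59.4 CPM in WT-drought, 59.2 to 70.3 CPM in PHD6-control and 57.0 to 85.4 CPM in WT-control libraries. That of 5 root and suberin markers was 41.4 to 103 CPM in PHD6-drought, 70.2 to 141 CPM in WT-drought, 78.7 to 84.3 CPM in PHD6-control and 48.5 to 98.3 CPM in WT-control libraries. That of 8 flower markers was 14.6 to 26.1 CPM in PHD6-drought, 9.72 to 16.8 CPM in WT-drought, 12.5 to 25.5 CPM in PHD6-control and 8.45 to 38.6 CPM in WT-control libraries. In each of these lists no marker was at 0 throughout a group.

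Among the other elongation genes, KCS4 and KCS8, chosen after their values were seen, had an interaction of -1.18 (SE 0.15, edgeR adjusted p = 0.000237) and -1.26 (SE 0.22, edgeR adjusted p = 0.00326). KCS4 fell by 0.55 under drought in PHD6 leaves (SE 0.08, edgeR adjusted p = 0.00291) and rose by 0.63 in WT leaves (SE 0.12, edgeR adjusted p = 0.00611).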
